A study of Mus musculus with 10 samples.

Results

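Sec62 and its partners in protein entry into the endoplasmic reticulum (ER) were followed in mouse cerebral cortex. The 10 genes were Sec62, Sec63, Sec61a1, Sec61b, Sec61g, Ssr1, Ssr2, Ssr3, Ssr4 and Hspa5. Every probe set annotated to them was read, 27 of 22626 in all. The array had 12393 genes with a probe set of their own, among them all of these but Sec61g. Sec62 was chosen by its difference between the same labelled groups in these data, and the other genes as its partners in the translocon. Its differences are therefore given as a description, without a test.

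The study compared male mice of 6 months, 5 labelled wild type (FE65WT) and 5 labelled null (p97FE65NULL), with 1 Affymetrix array for the cortex of each mouse, to look for genes under the control of FE65. The mice came as littermate pairs, and which arrays form a pair is not given in the labels, so the fits are unpaired. FE65, encoded by Apbb1, is an adaptor protein that binds the amyloid precursor protein, and the null mice lack its full-length form, p97, in the whole body. The gene was targeted in R1 ES cells, which come from another mouse strain, and the line was then backcrossed to C57Bl/6J. Null mice can therefore keep sequence of the ES cell strain around the targeted gene on chromosome 7. The study found such sequence at Gprc5b and Homer2 on that chromosome and ascribed its Gprc5b difference to it. None of the 10 genes lies on chromosome 7, and effects of the kept sequence on genes elsewhere were not tested.

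Secretory and membrane proteins enter the ER through a channel built of the Sec61 α, β and γ subunits, encoded by Sec61a1, Sec61b and Sec61g. Sec62 and Sec63 sit beside this channel and help precursors that reach it after translation or open it poorly, and Sec62 is also a receptor for the removal of excess ER by autophagy. The translocon-associated protein complex, Ssr1 to Ssr4, assists some signal sequences, and Hspa5 (BiP), the main Hsp70 chaperone of the ER lumen, is recruited by the J domain of Sec63, seals the channel, pulls chains inward and is the classic target of the unfolded protein response.

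The upstream sequences of Sec62 and Hspa5 are shown because the ER stress element, which drives Hspa5 in the unfolded protein response, separates these genes. The element was searched as CCAAT, 9 bases of any kind, then CCACG, on both strands, beside the E-box CACGTG and the core TGACGTG of a further element of that response. The windows ran from 250 bases before to 50 after each gene's start in RefSeq (GRCm38.p6), and 8 of the 10 genes had one, Sec61a1 and Ssr2 being the others. The 250 bases before the start are printed, both on the + strand, with capitals for the E-box of Sec62 (chr3:30792626-30792875) and for the ER stress element of Hspa5 (chr2:34771840-34772089).
Sec62: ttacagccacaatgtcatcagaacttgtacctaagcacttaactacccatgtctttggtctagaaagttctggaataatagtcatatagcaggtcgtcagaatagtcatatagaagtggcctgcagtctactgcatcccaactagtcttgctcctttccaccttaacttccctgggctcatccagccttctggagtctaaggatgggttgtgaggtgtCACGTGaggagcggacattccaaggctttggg
Hspa5: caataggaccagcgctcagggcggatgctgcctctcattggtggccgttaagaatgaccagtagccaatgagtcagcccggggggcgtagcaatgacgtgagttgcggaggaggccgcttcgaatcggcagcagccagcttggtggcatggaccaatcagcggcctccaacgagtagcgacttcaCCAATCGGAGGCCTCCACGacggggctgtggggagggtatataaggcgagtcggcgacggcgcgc

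Of the 8 windows, only that of Hspa5 held the ER stress element, which 0.119% of all 32851 promoter windows held. Hspa5 was also the only one of them with the shorter core, found in 2.01% of all windows. The E-box, found in 7.15%, was present in the windows of Sec62 and Ssr1. A match is a description of these letters and no evidence of binding.

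All values are log2 expression values of the GC-RMA method, and differences are labelled null minus labelled wild type on that scale, so that -1 would be a halving. A probe set with a mean under 5 is called dim here; 13 of the 27 probe sets had a mean of at least 5. Array medians lay between 3.01 and 3.14, and every pair of arrays correlated at 0.994 to 0.999 over all probe sets. The brightest neuronal and astrocyte markers had means of 13.17 and 12.94, though the neuronal Rbfox3 was dim, at 4.16. The 3 liver markers stayed at 2.42 or less. These lists bear out brain tissue and do not tell cortex from other brain regions. Both Apbb1 probe sets lie in a stretch that the null mice still transcribe, so a low value was not to be looked for in either group (0.11 ± 0.10 and 0.26 ± 0.06, SE, n = 5 per group).

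Sec62 was lower in the arrays labelled null than in those labelled wild type on all 4 of its probe sets, by a median of -0.20, and the size depended on the probe set. This direction is opposite to that of the study's own table, where the gene is listed as higher in the null mice. The sign was likewise turned for both Apbb1 probe sets, which the study gives as lower in the null mice, and for Gprc5b, which it gives as higher in them by array and by RT-PCR. In these arrays, Gprc5b 1451411_at was lower under the null label, at -1.23 ± 0.36 (SE, n = 5 per group). The groups are therefore named by their labels throughout, and if the labels were exchanged every signed difference given here would turn. The largest difference was that of 1454697_at, at -0.49 ± 0.12 (SE, n = 5 per group), which is 1.40-fold. Arrays 1 to 5 labelled wild type read 10.05, 10.42, 10.44, 10.31 and 10.26 on it. Arrays 1 to 5 labelled null read 9.52, 9.64, 9.91, 9.82 and 10.16. All 5 null arrays lay below the wild type mean and 4 lay below the lowest wild type array, and the groups overlapped only because null array 5 was above wild type array 1. In cortex as a whole, fewer cells of a type and less RNA per cell cannot be told apart.

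The brightest Sec62 probe set gave a smaller difference. On 1433704_s_at, whose suffix marks probes that can be shared by related transcripts, wild type arrays read 10.95, 10.62, 10.73, 10.62 and 10.96. The null arrays read 10.53, 10.70, 10.71, 10.50 and 10.73 on the same probe set. All null arrays were again below the wild type mean, but only 2 were below the lowest wild type array, and the difference was -0.14 ± 0.09 (SE, n = 5 per group).

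The third probe set, 1455698_at, differed by -0.25 ± 0.16 (SE, n = 5 per group). Its wild type arrays read 8.03, 8.24, 8.04, 8.30 and 7.98, against 7.78, 8.01, 7.89, 7.32 and 8.33 in the null arrays. Null array 4 was the lowest and null array 5 the highest of all 10, so the group labelled null spanned the group labelled wild type. Without null array 4 the difference was -0.12, and with the first principal component of all probe sets as a covariate -0.14. The last probe set, 1432635_a_at, was dim (mean 2.57) and differed by -0.10 ± 0.07.

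**Figure D1:**
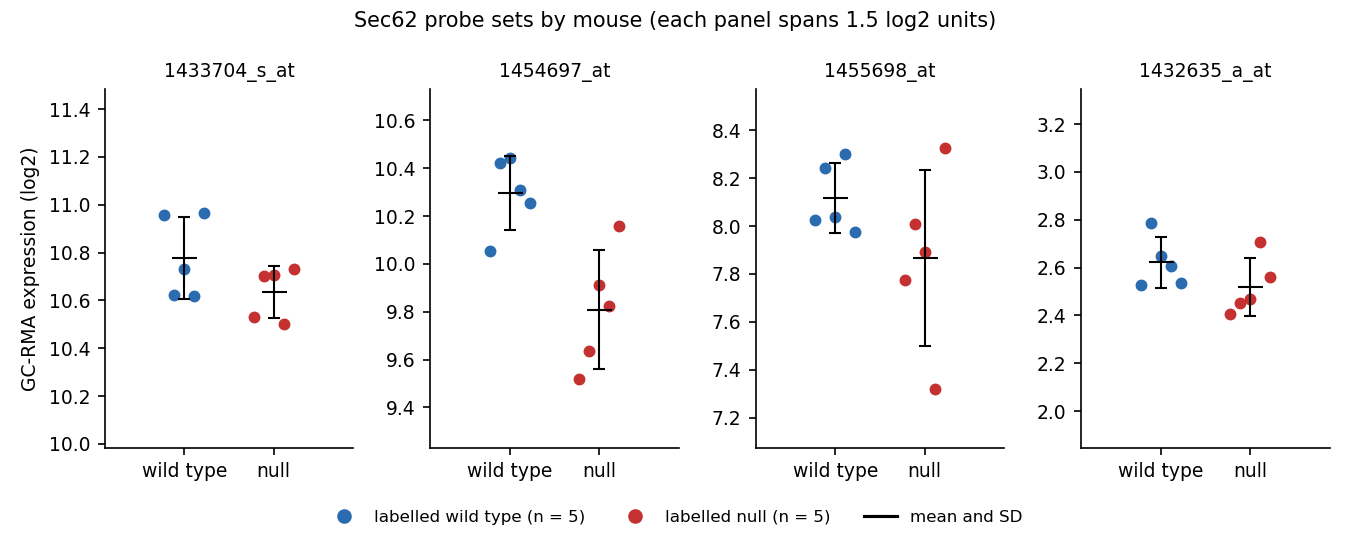
Sec62 expression (log2, vertical axis) by mouse for its 4 probe sets, with labelled wild type and labelled null side by side and lines for the mean and SD (n = 5 each). The groups are furthest apart on 1454697_at (-0.49), and they overlap on all 4 panels.

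A common order of the mice was not detectable among the 3 bright Sec62 probe sets. After each group's mean was subtracted, 1433704_s_at and 1454697_at correlated at r = -0.09 (exact permutation within groups, p = 0.795) and Spearman's rho = 0.10 (p = 0.842) over 10 arrays. The other pairs gave r = 0.16 (rho = -0.05) and r = 0.41 (rho = 0.50). The last fell to 0.00 without the 2 arrays farthest from the median of 1454697_at. None of the 3 relations passed among the 7 tested within genes (adjusted p = 0.795 for each r, exact permutation, two-sided).

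The same check was made in Hspa5 and Sec63, the partners with several bright probe sets. The Hspa5 pair correlated at r = 0.79 (exact permutation p = 0.0115, adjusted p = 0.0401), with rho = 0.70 (p = 0.0522, adjusted p = 0.183). Without the 2 arrays farthest from the median of 1416064_a_at, r was 0.45. Sec63 1424925_at and 1424924_at correlated at r = 0.52 (exact permutation p = 0.00313, adjusted p = 0.0219; rho = 0.85, adjusted p = 0.0651). Without the 2 arrays farthest from the median of 1424925_at, r was 0.56. Wild type array 2, the highest on 1424924_at, was kept in. The other Sec63 pairs gave 0.12 and 0.29 (rho 0.30 and 0.45, adjusted p = 0.795 for both r, exact permutation). Whether agreement differed between genes was not tested.

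**Figure D2:**
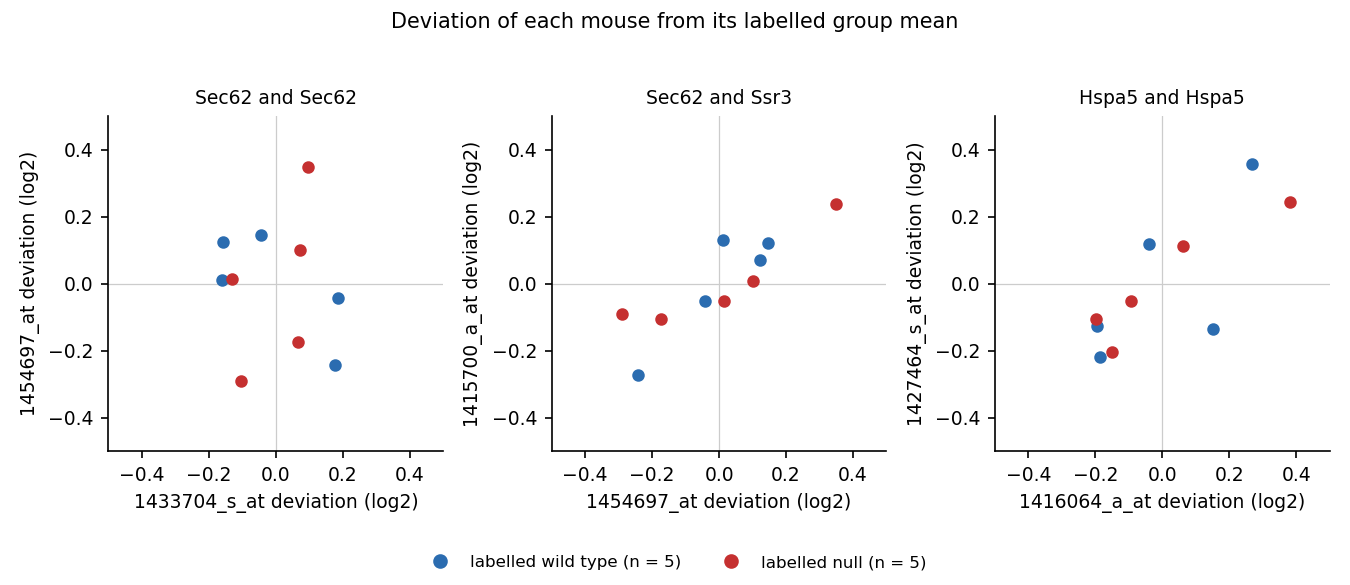
Deviation of each array from its labelled group's mean (log2, both axes) for 2 Sec62 probe sets, for Sec62 and Ssr3, and for both Hspa5 probe sets, with 5 arrays per group. The Sec62 pair shows no common order (r = -0.09), whereas the points rise together for Sec62 1454697_at with Ssr3 (0.87) and for Hspa5 (0.79).

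None of the partner genes passed the test across all probe sets. Of the 23 partner probe sets, 0 were called by limma at an adjusted p under 0.05, as were 0% of all 22626 probe sets, and the lowest adjusted p among the partners was 0.999. At an unadjusted p under 0.05 there was 1, Ssr3, which was lower in the null arrays; of all probe sets 3.67% passed this threshold in either direction and 2.43% passed it as lower. No member probe set had groups that did not overlap, against 0.623% of all probe sets. Over the 9 genes, each by its brightest probe set, the median difference was 0.00, with a range of -0.21 to 0.20, and over all probe sets the median was also 0.00 (-0.05 for the 7827 with a mean of at least 5). The precision differed by gene, with 95% intervals as narrow as -0.14 to 0.14 for Sec63 1424926_at and as wide as -0.34 to 0.32 for Ssr2.

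**Figure D3:**
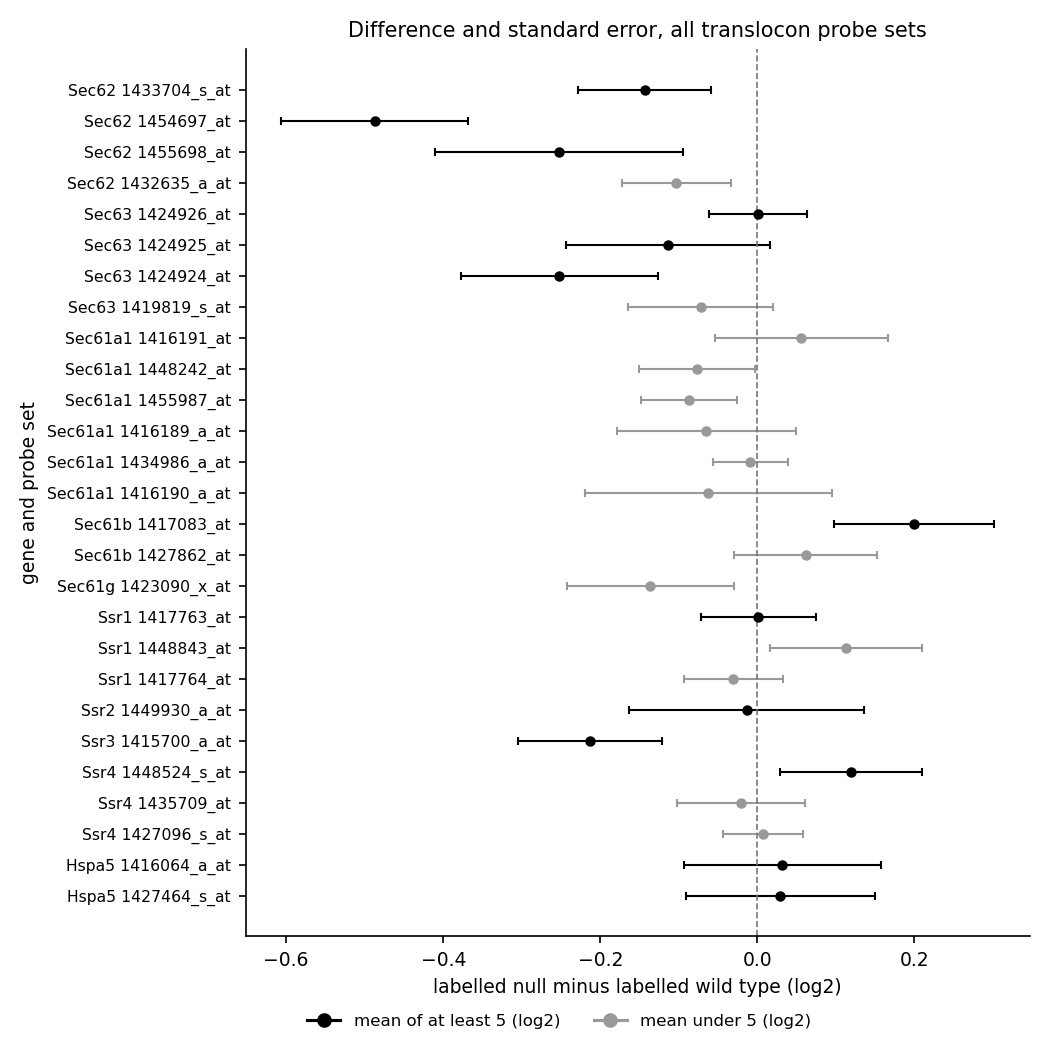
Difference (log2, horizontal axis; labelled null minus labelled wild type) with its standard error (bars) for all 27 probe sets of the 10 genes, dim probe sets in grey. The Sec62 probe set 1454697_at is the farthest from 0, and the brightest probe sets of the partners lie between -0.21 (Ssr3) and 0.20 (Sec61b).

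Set beside the partners, 1454697_at of Sec62 had the lowest difference of all 27 probe sets, followed by 1455698_at of Sec62 and Sec63 1424924_at (-0.25 each) and Ssr3 (-0.21). The order below the first was not stable, since without null array 4 the difference of 1455698_at was -0.12, above those of Sec63 1424924_at (-0.26) and Ssr3 (-0.20). The mean of the 9 partner genes was 8.01 ± 0.06 (SD, n = 5) in the wild type arrays and 8.02 ± 0.11 in the null arrays. Relative to that mean, 1454697_at stood at 2.28 ± 0.16 and 1.79 ± 0.22 (SD, n = 5 each). Wild type arrays ranged from 2.09 to 2.45 and null arrays from 1.46 to 1.97, without overlap. Before the subtraction the groups overlapped on this probe set. How many other probe sets separate in this quantity was not counted. Signals of different probe sets are not on a common scale, so only the shift between arrays can be read from this quantity, and it describes a probe set chosen on the same contrast.

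The Sec61 channel subunits differed from each other in sign, and no difference passed the test. Sec61b 1417083_at read 8.42, 8.01, 8.50, 8.53 and 8.52 in the wild type arrays. The null arrays read 8.49, 8.69, 8.56, 8.49 and 8.74, all above the wild type mean. The difference was 0.20 ± 0.10 (SE, n = 5 per group; limma p = 0.0768, exact permutation p = 0.0873, adjusted p = 0.999), and wild type array 2 stood apart from the other wild type arrays, without which it was 0.10. The other Sec61b probe set, 1427862_at, is shared with Gm10320 and dim (0.06 ± 0.09).

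Sec61a1, which encodes the pore itself, was read by 6 probe sets, all dim, with means of 2.54 to 4.72 and differences of -0.09 to 0.06. The brightest, 1416191_at, differed by 0.06 ± 0.11 (SE, n = 5 per group; exact permutation p = 0.659). The signal of a probe set cannot be set against that of another, so these low values say nothing of how much Sec61a1 RNA there was relative to the other subunits. Sec61g had no probe set of its own: 1423090_x_at is shared with Gm11575 and Gm10177 and differed by -0.14 ± 0.11 (exact permutation p = 0.294), with null array 4 at 4.13 and the other null arrays at 4.62 or more. Without that array the difference was -0.03.

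Sec63, the J-domain partner of Sec62, showed no difference on its brightest probe set. On 1424926_at the wild type arrays read 7.16, 7.28, 7.22, 7.41 and 7.12, and the null arrays 7.11, 7.25, 7.23, 7.28 and 7.33. The groups lay on top of each other, at 0.00 ± 0.06 (SE, n = 5 per group; interval -0.14 to 0.14). The second, 1424925_at, differed by -0.11 ± 0.13 (exact permutation p = 0.452).

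The third Sec63 probe set, 1424924_at, differed by -0.25 ± 0.13 (SE, n = 5 per group; limma p = 0.0708, exact permutation p = 0.0159, adjusted p = 0.999). Its wild type arrays read 5.10, 5.79, 5.15, 5.23 and 5.10, and its null arrays 5.09, 4.86, 5.03, 5.03 and 5.10. Wild type array 2 was alone above 5.23, and without it the difference was -0.12. The fourth, 1419819_s_at, was dim and differed by -0.07 ± 0.09.

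In the translocon-associated protein complex, 1 of the 4 subunits, Ssr3, had an unadjusted p under 0.05 by limma. Ssr3 1415700_a_at read 9.39, 9.74, 9.79, 9.79 and 9.61 in the wild type arrays. It read 9.36, 9.34, 9.46, 9.40 and 9.69 in the null arrays, of which 4 lay below the wild type mean and 2 below the lowest wild type array. The difference was -0.21 ± 0.09 (SE, n = 5 per group; 1.16-fold; limma p = 0.0414, exact permutation p = 0.0794, adjusted p = 0.999) and failed the correction over all probe sets. The limma p rose above 0.05 when any 1 array was left out other than wild type array 1 or null array 5. Leaving out each array in turn gave differences from -0.28, without wild type array 1, to -0.18.

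The other subunits of this complex were close to 0 or higher in the null arrays. Ssr1 1417763_at read 10.25, 10.14, 10.26, 9.93 and 10.25 in the wild type arrays and 10.25, 10.02, 10.23, 10.21 and 10.14 in the null arrays. It differed by 0.00 ± 0.07 (interval -0.16 to 0.16), the groups lying within the same range. Ssr2 1449930_a_at differed by -0.01 ± 0.15 (exact permutation p = 0.952), its null arrays lying at 6.98 to 7.20 except for array 5, at 7.79.

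Ssr4 1448524_s_at, on the X chromosome, read 8.49, 8.23, 8.43, 8.47 and 8.40 in the wild type arrays and 8.77, 8.40, 8.32, 8.46 and 8.67 in the null arrays. The groups overlapped and differed by 0.12 ± 0.09 (SE, n = 5 per group; exact permutation p = 0.262, adjusted p = 0.999). The remaining probe sets of Ssr1 and Ssr4 were dim, with differences of -0.03 to 0.11.

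Hspa5, the chaperone at the inner side of the channel, did not differ between the groups beyond the spread between mice on either probe set. On 1416064_a_at the wild type arrays read 11.43, 11.77, 11.42, 11.89 and 11.58, and the null arrays 11.71, 11.45, 11.50, 11.56 and 12.03. The null arrays ranged over nearly the same values as the wild type arrays, and the difference was 0.03 ± 0.13 (SE, n = 5 per group; interval -0.25 to 0.31; exact permutation p = 0.810). On 1427464_s_at it was 0.03 ± 0.12 (interval -0.24 to 0.30).

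**Figure D4:**
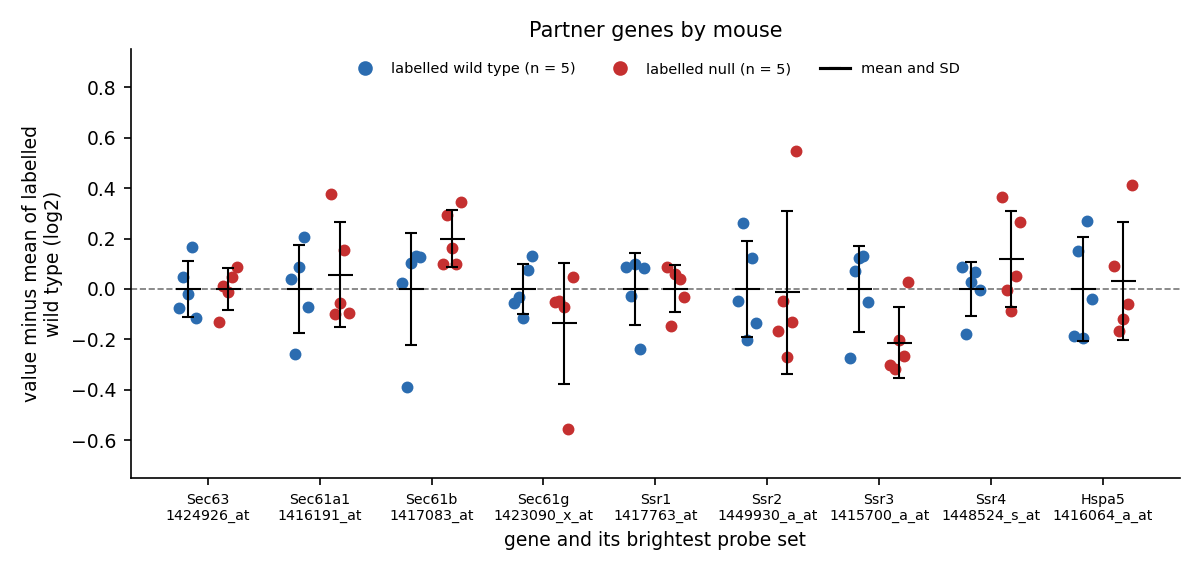
Value of each array minus the mean of the labelled wild type arrays (log2, vertical axis) for the brightest probe set of each of the 9 partner genes, with lines for the mean and SD (n = 5 per group). The null arrays of Ssr3 centre at -0.21 and those of Sec61b at 0.20, with the other genes between them.

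Among the partners, each by its brightest probe set, Ssr3 followed the Sec62 probe set 1454697_at most closely from mouse to mouse. With group means subtracted, r was 0.87 over 10 arrays (exact permutation within groups, two-sided, p = 0.00132, adjusted over the 9 partners p = 0.0119). It stayed at 0.87 without the 2 arrays farthest from the median of 1454697_at. Wild type array 1, which deviated most on Ssr3, was kept in. Spearman's rho was 0.80 (p = 0.0192), which did not pass after adjustment (exact permutation, adjusted p = 0.173). None of the other 8 partners passed, with r from -0.48 to 0.58 and adjusted p-values of 0.36 or more. A dim probe set of Sec61a1, 1416189_a_at, correlated with 1454697_at at 0.77 and was not tested. With the brightest Sec62 probe set, 1433704_s_at, Ssr3 correlated at -0.35, also without a test. The relation of Ssr3 with 1454697_at thus passed by r and not by rho, and it was not seen on the brightest Sec62 probe set. Whether the Sec62 probe sets differ in it was not tested.

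Sec62 1454697_at and Ssr3 also both moved with the leading pattern over all probe sets. The first principal component of the group-centred values held 38.9% of the variance and correlated at 0.83 with 1454697_at and at 0.79 with Ssr3, and with this component removed their r was 0.62. In the uncentred data the first component averaged 4.95 in the wild type and -4.95 in the null arrays, and the groups overlapped widely on it. Wild type arrays ran from -17.9 (array 1) to 29.2 (array 2), and null arrays from -20.8 (array 1) to 18.1 (array 5). With that component as a covariate, the difference of 1454697_at was -0.38 and that of Ssr3 -0.14, and no partner probe set kept an unadjusted p under 0.05. The brightest Sec62 probe set did not move with the centred component (r = -0.13). What this component reflects was not tested.

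The genes most like the brightest Sec62 probe set were sought among 7141 probe sets of other genes with a mean of at least 5, by the correlation of group-centred values over the 10 arrays. They were Rpgrip1 (r = 0.91), Mrpl46 (0.90), Nelfe (0.89), Dstyk (0.87) and Sptan1 (0.86), none of them a translocon gene. These are the highest of many values and carry no test. The Sec62 neighbours on chromosome 3 were 6 genes within 1 Mb, of which Cldn11 alone had an unadjusted p under 0.05 (-0.52 ± 0.22, limma p = 0.0410, exact permutation p = 0.0556, adjusted p = 0.999). The others lay between -0.06 and 0.09.

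Around the translocon, 94 further genes in 10 lists of the secretory pathway were read by 1 probe set each, the brightest, and none was called. At an unadjusted p under 0.05 there were 4 (4.26%), 1 higher and 3 lower in the null arrays, against 3.94% of all 12393 genes, and the median difference of the 94 was 0.00. Each list held 5 to 14 genes, too few for a count of 0 or 1 to be told from 3.94%. The 3 lower genes were Emc2, Dnajb9 and Sar1a. The higher one, Atl3, an atlastin GTPase that shapes and recycles ER tubules, was dim, with a mean of 2.96 in the wild type and 3.14 in the null arrays (0.18 ± 0.08, limma p = 0.0492, exact permutation p = 0.0556, adjusted p = 0.999).

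**Figure D5:**
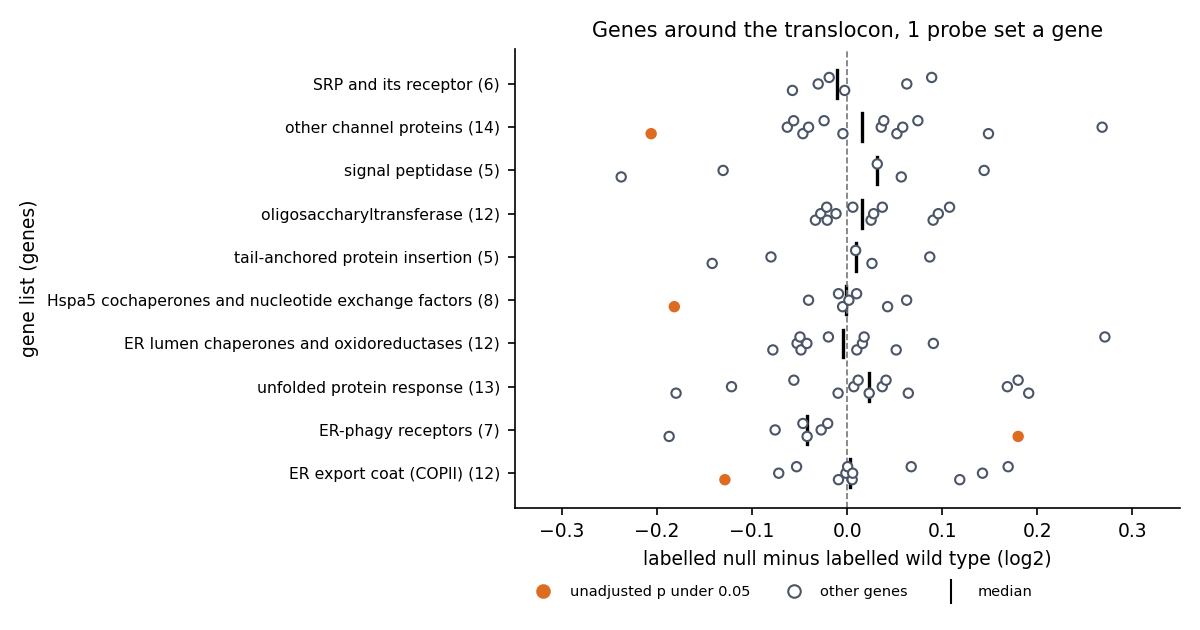
Difference (log2, horizontal axis; labelled null minus labelled wild type) for 94 genes in 10 lists around the translocon, 1 point a gene, with a bar at each list's median. The medians lie between -0.04 and 0.03, and the 4 filled points are the genes with an unadjusted p under 0.05.

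The lists that bring chains to the membrane were centred near 0. The signal recognition particle and its receptor had 0 of 6 genes past the unadjusted threshold, with Srp19, a protein of the particle, at 0.09 ± 0.11 and Srprb, the membrane-bound receptor subunit, at -0.06 ± 0.12. Tail-anchored protein insertion had 0 of 5, with the targeting ATPase Get3 at -0.14 ± 0.10 and the cytosolic chaperone Sgta at -0.08 ± 0.10. Among the other channel and insertion proteins, 1 of 14 passed: Emc2, a subunit of the ER membrane protein complex, at -0.21 ± 0.09 (limma p = 0.0477, exact permutation p = 0.0476, adjusted p = 0.999). Tram1, which lies beside the channel, was dim and differed by 0.27 ± 0.14.

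The enzymes that act on emerging chains gave no call either. Signal peptidase had 0 of 5 genes past the unadjusted threshold, with its catalytic subunit Sec11c at -0.24 ± 0.13 and Spcs1 at -0.13 ± 0.12. The oligosaccharyltransferase, which adds N-glycans, had 0 of 12, with Rpn1 at 0.11 ± 0.09 and Tmem258 at 0.09 ± 0.10. Of the chaperones and oxidoreductases of the lumen, 0 of 12 passed, with Hsp90b1 (GRP94) at -0.08 ± 0.08 and the disulfide isomerase P4hb at -0.05 ± 0.06.

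Of the 8 cochaperones and exchange factors of Hspa5, 1 passed the unadjusted threshold, which 3.94% of all 12393 genes passed. Dnajb9 (ERdj4), a J protein that works with Hspa5, read 10.39 ± 0.09 (SD, n = 5) in the wild type and 10.21 ± 0.12 in the null arrays, a difference of -0.18 ± 0.06 (SE; limma p = 0.0176, exact permutation p = 0.0476, adjusted p = 0.999). Dnajb11 was dim, at -0.04 ± 0.04. The unfolded protein response list had 0 of 13, with its transcription factor Xbp1 at 0.19 ± 0.11 and Atf6b at 0.18 ± 0.10, the latter dim.

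The genes with the ER stress element can be read in the same way. Of the 104 members and list genes, 86 had a promoter window and 8 held the element: Hspa5, Hsp90b1, Calr, Canx, Creld2, Dnajc3, Ero1b and Pdia6. Their differences ran from -0.12 (Creld2) to 0.27 (Calr), with a median of 0.00. By limma, 0 of the 8 had an unadjusted p under 0.05, against 3.94% of all 12393 genes. With 8 genes, a count of 0 cannot be told from that share. The 8 are mostly chaperones and folding enzymes, and they include no member other than Hspa5.

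At the exit side of the ER, 1 of 12 genes of the COPII coat passed the unadjusted threshold, against 3.94% of all 12393 genes. Sar1a, the GTPase that starts coat assembly, was at 11.11 ± 0.08 (SD, n = 5) in the wild type and 10.98 ± 0.08 in the null arrays (-0.13 ± 0.05, SE; limma p = 0.0386, exact permutation p = 0.0476, adjusted p = 0.999), and the dim cargo adaptor Sec24d differed by 0.14 ± 0.07. Of the 7 other ER-phagy receptors, the class to which Sec62 also belongs, only Atl3 passed, and Rtn3 differed by -0.05 ± 0.04.

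Markers of cell types and RNA ends were read beside these values. Of 4 oligodendrocyte markers, 2 had an unadjusted p under 0.05 by limma and were lower in the null arrays, Mbp (-0.23 ± 0.07) and Cldn11. Mobp (-0.16 ± 0.22) and Mog (-0.27 ± 0.17) did not pass. The sum of the list was taken on the linear scale and is mostly Mbp (mean 13.95), so it adds little to that gene. It was 14.07 to 14.47 in the wild type and 13.94 to 14.08 in the null arrays. Of 5 neuronal markers, 2 passed the same threshold and were lower, Tubb3 (-0.20 ± 0.07) and the dim Rbfox3 (-0.37 ± 0.12). Snap25 (-0.09), Gad1 (-0.11) and Syt1 (0.07) did not pass. The neuronal sums were 14.12 to 14.43 in the wild type and 14.10 to 14.36 in the null arrays. Astrocyte, microglial, endothelial and choroid plexus lists had none past that threshold. Of all 12393 genes 3.94% passed it, and the adjusted limma p was 0.999 for every marker. The 3′ minus 5′ signal of Gapdh was -0.04 to 0.27 in the wild type and -0.07 to 0.12 in the null arrays. The part of these markers in the values of Sec62 and Ssr3 was not tested.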

How the data were processed

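RNA from the cerebral cortex of 10 mice was measured on 1 Affymetrix mouse expression array each. The authors made the deposited log2 values with GC-RMA, in which probe GC content sets the background, arrays are normalized against each other and the probes of a set are combined. No version of it was given. Low values are pulled together by this step, so differences of dim probe sets are compressed. Groups came from the labels alone.

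Control probe sets (64) were left out. Platform annotation gave 1 gene for 20380 of the remaining 22626 probe sets, several for 691 and none for 1555. The difference of null minus wild type was fitted on all 22626 with limma 3.58.1 in R 4.3.3 (lmFit, eBayes), with Benjamini-Hochberg adjustment and a threshold of 0.05. The fit was tested on simulated data. Single probe sets were also tested by exact permutation over all 252 splits of the arrays (two-sided), and correlations over all 14400 permutations within groups (Python 3.11.15). Motifs were searched in RefSeq promoters.

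The members and gene lists were chosen with earlier results of these data known. Named were every member probe set, the 2 genes of each list with the smallest p, the 5 genes most like the brightest Sec62 probe set, and Apbb1 and Gapdh. The genes past the unadjusted threshold, the genes with the ER stress element, Gprc5b and the single markers of neurons and oligodendrocytes were named after their values were seen. P-values measure the spread between these mice, and the number of arrays limits the precision. Scaling, filters, weights, the prior, a t-test, a replicate block, a component covariate and leaving out each array were tried as alternatives.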

Additional observations from a re-analysis of the deposited data

Results flagged for a closer look

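In 5 of the 54 groups of 5 arrays (27 probe sets, both labels), the highest or lowest array stood apart from the rest of its group by the gap criterion of Dixon; chance gives about 1 in 20 groups. In Sec63 1424924_at, wild type array 2 was highest at 5.79, with the next at 5.23, and null array 2 was lowest at 4.86, with the next at 5.03. In Sec61b 1417083_at, wild type array 2 was lowest at 8.01, with the next at 8.42. In the shared probe set of Sec61g, 1423090_x_at, null array 4 was lowest at 4.13, with the next at 4.62. In Ssr2 1449930_a_at, null array 5 was highest at 7.79, with the next at 7.20. Wild type array 2 accounts for 2 of the 5.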

How the results depend on the processing

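No partner probe set passed the adjusted threshold under any of 19 alternatives, the median of the 9 partner genes stayed between -0.02 and 0.07, and Sec62 1454697_at between -0.57 and -0.38, the last with the first component as a covariate, an alternative chosen after seeing the data. The count of partner probe sets at an unadjusted p under 0.05 was 1. It became 2 with median centring, quantile normalization and array weights, and 0 with the filter at a mean of 5, the floor at 4, the intensity trend, the methods' t-test and the component covariate. Leaving out 1 array gave 0 to 1: Ssr3 kept it only without wild type array 1 or null array 5, lost it without any other array, and without null array 1 Sec63 1419819_s_at passed in its place. Among the 94 list genes the count of 4 became 1 with the filter, which leaves 71 of them. It became 2 with the floor, the trend and the t-test, and 1 to 4 without 1 array. The causes were not tested. Over all 22626 probe sets the count was 830. It ranged from 354 with the filter, which leaves only 7827 probe sets to test, to 1655 without 1 array. Of 872 single values under the alternatives, 870 moved by less than the SD between arrays within groups. The exceptions were the dim Atl3 and Sec24d, at 0 with the floor. Several alternatives change only the test and not the difference, and leaving out 1 array cannot move it by that SD. The count was thus largely fixed in advance and does not speak for stability.

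With the replicate number as a block, 0 partner probe sets passed the adjusted threshold, 1 passed the unadjusted one, and 6 list genes did. The mice were littermate pairs, but the numbers were not shown to mark them: group-centred values of same-numbered arrays correlated at 0.46, 0.08, 0.05, 0.08 and 0.07, and only number 1 was its own best match.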
